A study of Mus musculus with 6 samples.

Results

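The glutathione genes described here, 10 in number, were followed across the myeloid cells of the mouse spinal cord in EAE (experimental autoimmune encephalomyelitis), the paralytic disease that follows immunisation of mice with the myelin peptide MOG35-55 and that serves to study multiple sclerosis. They are the cystine carrier Slc7a11, the synthesis gene Gclm, the reductase Gsr, the peroxidases Gpx1, Gpx3 and Gpx4, and the transferase genes Gsto1, Gstm1, Mgst1 and Mgst2. They were taken by symbol, and each matched 1 row, which makes 10 of 38293 gene IDs in the files. RNA was counted in single CD11b+ cells of the spinal cord with a droplet kit that reads transcript 3' ends, and each molecule was counted once as a unique molecular identifier (UMI). All mice were C57BL/6 and 10 weeks old, and their cells were stained with DCFDA at 10 µM, a dye that fluoresces when reactive oxygen species (ROS) oxidise it. The EAE ROS+ group (2 libraries) held dye-bright cells from mice at EAE onset (score 1), the EAE ROS- group (2 libraries) dye-dim cells from mice at the same stage, and the healthy ROS- group (2 libraries) dye-dim cells from healthy mice. The dye, the CD11b sort, the enzyme digestion and the myelin depletion were common to all groups. Fits between groups measure the spread between 2 libraries a group, pooled over the groups in the fit. Fits that compare cell classes had library as a block and measure the spread left between class sums of the EAE libraries. No label ties the libraries to different mice, so the spread behind every p-value may be technical.

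Glutathione is a tripeptide that cells build from cystine taken up by the exchanger that Slc7a11 forms, through the glutamate-cysteine ligase whose modifier subunit is encoded by Gclm. Glutathione peroxidases spend it to reduce peroxides, Gsr returns the oxidised form with NADPH, and glutathione transferases couple it to lipids and electrophiles. In the inflamed central nervous system, infiltrating phagocytes and microglia make oxidants and also carry these defences.

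The genes lie on 7 chromosomes of the GRCm38 build, with positions from GENCODE vM21. Slc7a11 is at chr3:49892526-50443614 on the minus strand, Gclm at chr3:122245557-122270732 on the plus strand, Gstm1 at chr3:108012255-108017973 on the minus strand and Mgst2 at chr3:51660360-51682677 on the plus strand. Gsr is at chr8:33652523-33698163, Gpx1 at chr9:108338903-108340343, Gpx3 at chr11:54902453-54910377, Gpx4 at chr10:80047166-80056439, Gsto1 at chr19:47854970-47864790 and Mgst1 at chr6:138140316-138156755, all on the plus strand. Stretches before the start sites of Slc7a11, Gclm and Mgst1 are shown because their promoters held 1 of 2 short motifs searched on both strands in the 250 bases before the start. The sequences are from RefSeq (GRCm38.p6), where 9 of the 10 genes matched, with 14 promoters; Gsr was not matched. The core of the antioxidant response element, TGACNNNGC, was found before Gclm and Mgst1, and the core of the amino acid response element, TGATGNAA, was found 2 times before Slc7a11, once on each strand. Capitals mark the matches, which start 134 bases before the Gclm start, 56 before the Mgst1 start (a RefSeq start inside the annotated gene, so the stretch also lies in an exon of another Mgst1 transcript), and 66 and 47 before the Slc7a11 start.
Slc7a11, chr3:50443624-50443733, minus strand: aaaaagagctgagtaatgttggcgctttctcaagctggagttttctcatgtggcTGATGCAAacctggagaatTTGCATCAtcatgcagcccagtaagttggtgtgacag
Gclm, chr3:122245407-122245556, plus strand: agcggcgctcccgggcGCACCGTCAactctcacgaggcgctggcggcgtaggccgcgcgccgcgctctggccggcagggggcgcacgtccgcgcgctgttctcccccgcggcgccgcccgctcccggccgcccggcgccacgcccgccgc
Mgst1, chr6:138140461-138140490, plus strand: gcggggcttgGCACGGTCAggaggcggggt
Among all 32851 promoters, 10.2% held the first motif and 3.45% the second, so a match describes the letters and is no evidence that a factor bound there.

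The 6 libraries held 9079 barcodes, of which 9078 were kept, with 915197 to 23407825 UMIs a library. Healthy library 2 was the smallest, with 202 cells. Cells were put into classes by UMIs of marker genes alone, none of them a member of the glutathione set: 5587 monocyte-derived cells (markers such as Ccr2, Ly6c2 and Plac8), 2671 microglia (Tmem119, P2ry12, Sall1), 109 dendritic cells (Flt3, Ccr7, Xcr1) and 57 T/NK cells (Cd3e, Nkg7). A further 50 cells had endothelial and 19 neutrophil markers, and 585 cells were in no class. Of the latter, 459 were in EAE ROS- libraries (18.6% and 10.4% of cells), at median depths of 12911.5 and 11861 UMIs. EAE ROS- microglia had median depths of 6629 and 4720.5 UMIs. In those unassigned cells microglial markers summed to 1253 and 1175 CPM and monocyte-derived markers to 2069 and 3391 CPM. They entered no class comparison. Monocyte-derived cells made up 93.6% and 97.0% of the EAE ROS+ libraries and 46.2% and 68.2% of the EAE ROS- libraries, and no healthy cell met the rule, which allows a share of up to 0.171% and 1.49%. Microglia made up 1.203% and 0.806% of the EAE ROS+ libraries (21 and 18 cells), 30.5% and 14.9% of the EAE ROS- libraries (493 and 228 cells), and 98.9% and 87.1% of the healthy libraries (1735 and 176 cells). Dendritic and T/NK cells reached 10 cells in the EAE ROS- libraries only (39 and 68, and 32 and 23 cells). All 10 markers of each of the first 2 classes were detected in their own class in every EAE library. Between libraries, 42 barcodes occurred in more than 1 library. Levels are UMIs of a gene per 1000000 UMIs of the class in a library (CPM over plain totals), and log2 fold changes are from edgeR's quasi-likelihood test over TMM-scaled totals, with p adjusted by Benjamini-Hochberg over all genes tested.

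Within EAE libraries, monocyte-derived cells had higher levels than microglia of 8 of the 9 genes that could be tested, and lower levels of Gpx3. The gaps were widest for Mgst1, Slc7a11, Gstm1 and Gsr, and narrower for Gclm, Gpx1, Gpx4 and Gsto1. Over all 8623 genes tested, 43.1% were called in either direction (21.7% higher and 21.4% lower). With plain totals the split over all genes was 1359 higher and 2442 lower, against 1875 higher and 1844 lower with TMM. The median log2 fold change was 1.22 over the 9 genes and -0.02 over all genes.

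Slc7a11 had 301 and 272 CPM in monocyte-derived cells of the EAE ROS+ libraries and 260.4 and 321 CPM in those of the EAE ROS- libraries, against 55.9 and 76.1 CPM in EAE ROS+ microglia and 45.9 and 22.1 CPM in EAE ROS- microglia. All 4 monocyte-derived values lay above all 4 microglial values, by a log2 fold change of 2.93 ± 0.22 (SE; adjusted p = 2.97e-11). Gclm had 48.7 and 61.7 CPM in EAE ROS+ and 43.6 and 60.7 CPM in EAE ROS- monocyte-derived cells, against 30.1 and 16.9 CPM in EAE ROS+ and 21.8 and 28.6 CPM in EAE ROS- microglia. The classes did not overlap, and the log2 fold change was 1.22 ± 0.20 (adjusted p = 1.13e-05). The share of all genes without overlap between these classes was not counted. Gsr, which returns oxidised glutathione to its reduced form, had 169 and 262 CPM in EAE ROS+ and 144 and 239 CPM in EAE ROS- monocyte-derived cells, against 47.3 and 76.1 CPM in EAE ROS+ and 35.7 and 36.8 CPM in EAE ROS- microglia. Its log2 fold change was 2.34 ± 0.19 (adjusted p = 7.05e-11), and in both groups library 2 had more Gsr than library 1.

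Among the peroxidases, Gpx1, the abundant cytosolic enzyme, had 826 and 922 CPM in EAE ROS+ and 720.3 and 748 CPM in EAE ROS- monocyte-derived cells, against 555 and 592 CPM in EAE ROS+ and 443 and 508 CPM in EAE ROS- microglia. The difference held in every library and was small, at 0.81 ± 0.13 on the log2 scale (adjusted p = 8.63e-06). Gpx4, which reduces lipid peroxides in membranes and restrains ferroptosis, had 529 and 472 CPM in EAE ROS+ and 423 and 447 CPM in EAE ROS- monocyte-derived cells, against 430.1 and 254 CPM in EAE ROS+ and 297 and 252 CPM in EAE ROS- microglia. The microglial value of EAE ROS+ library 1 lay within the monocyte-derived range, and the log2 fold change was 0.79 ± 0.15 (adjusted p = 9.26e-05). Gpx3, the secreted plasma form, ran the other way, with 7.14 and 7.65 CPM in EAE ROS+ and 4.90 and 3.92 CPM in EAE ROS- monocyte-derived cells, against 21.5 and 16.9 CPM in EAE ROS+ and 23.6 and 17.2 CPM in EAE ROS- microglia. It was lower in monocyte-derived cells of all 4 libraries, with a log2 fold change of -1.80 ± 0.34 (adjusted p = 8.57e-05); the EAE ROS+ microglial values rest on 5 and 2 UMIs.

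Mgst1, a membrane-bound transferase that also reduces lipid peroxides, had 519 and 523 CPM in EAE ROS+ and 286 and 404 CPM in EAE ROS- monocyte-derived cells, against 90.3 and 50.8 CPM in EAE ROS+ and 27.0 and 26.1 CPM in EAE ROS- microglia. This was the largest difference among the 9 genes tested, at 3.53 ± 0.21 on the log2 scale (adjusted p = 4.46e-13). Gstm1, a cytosolic transferase of the mu class, had 32.1 and 40.1 CPM in EAE ROS+ and 17.2 and 27.3 CPM in EAE ROS- monocyte-derived cells, against 8.60 CPM (2 UMIs) and 0 UMIs in EAE ROS+ and 3.34 and 2.45 CPM in EAE ROS- microglia, a log2 fold change of 2.81 ± 0.36 (adjusted p = 3.7e-07). The mu-class genes are close in sequence, and no source used here says how shared reads were counted, so the Gstm1 count is uncertain. Gsto1, a transferase of the omega class, had 80.5 and 71.1 CPM in EAE ROS+ and 72.7 and 73.5 CPM in EAE ROS- monocyte-derived cells, against 43.0 and 33.8 CPM in EAE ROS+ and 69.6 and 55.5 CPM in EAE ROS- microglia. Its log2 fold change was 0.54 ± 0.17 (adjusted p = 0.0123), and that call was lost with plain totals (0.37, adjusted p = 0.0864), without EAE ROS- library 2 (adjusted p = 0.0852) and without EAE ROS+ library 1 (adjusted p = 0.0807). Mgst2, the microsomal relative of Mgst1 that can also make leukotriene C4, was too low to be tested between classes, with 3.20 and 5.50 CPM in EAE ROS+ and 0.632 and 1.39 CPM in EAE ROS- monocyte-derived cells, against 1 UMI in all EAE microglia.

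**Figure D1:**
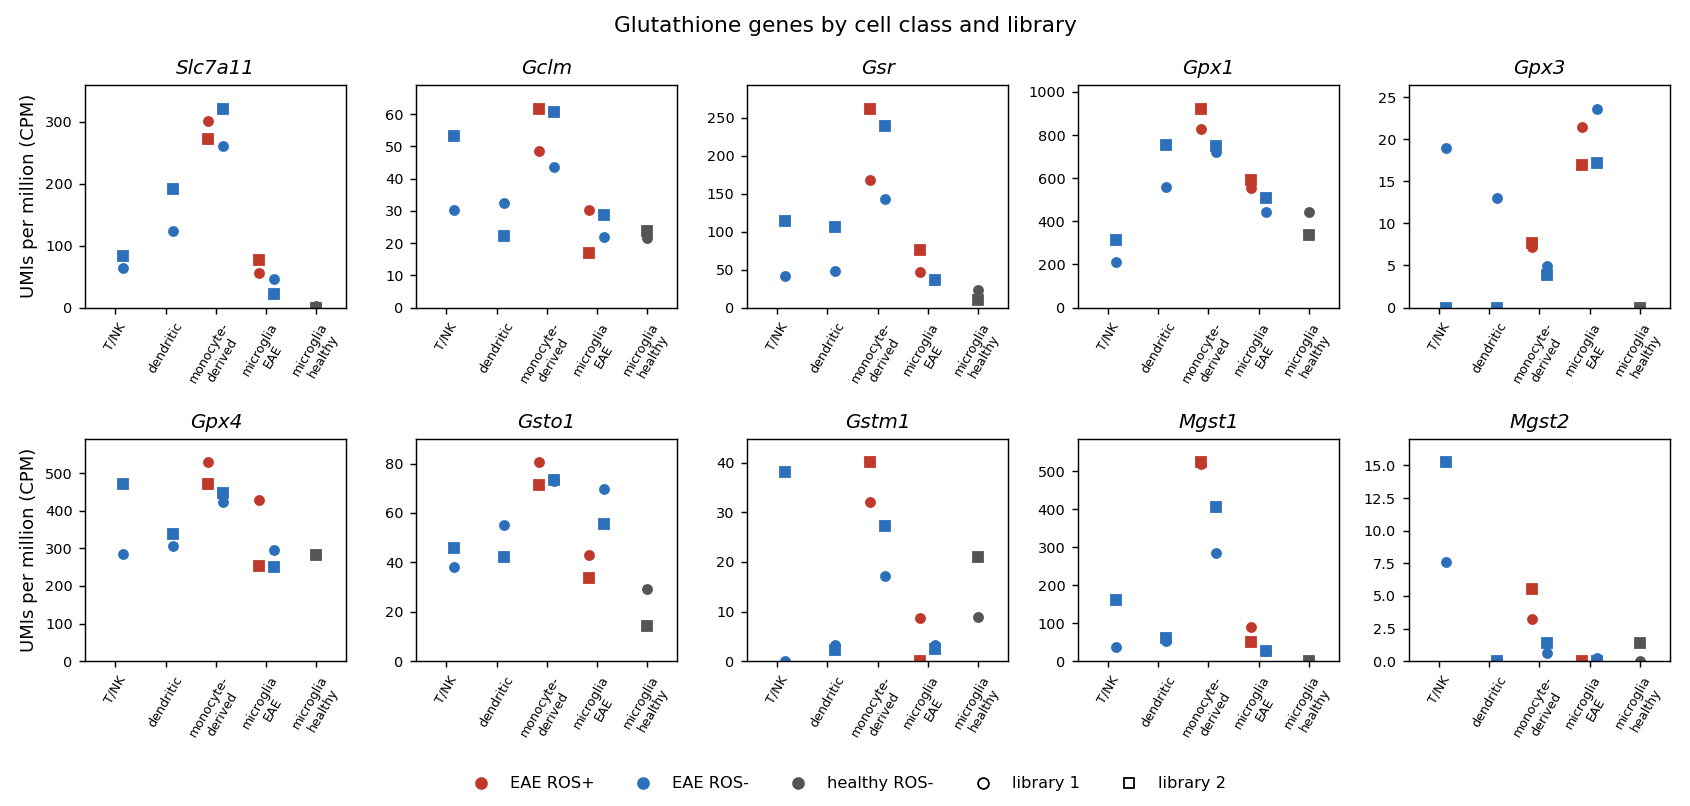
Level of each gene (y axis, UMIs per 1000000 UMIs of the class in a library, linear from 0) in each cell class (x axis), 1 point per library with at least 10 cells of the class (circles library 1, squares library 2), red for EAE ROS+, blue for EAE ROS- and grey for healthy ROS-. Among the 4 classes drawn, monocyte-derived points are highest for Slc7a11, Gsr and Mgst1, EAE microglia are above monocyte-derived cells for Gpx3, and both healthy microglia points of Gpx3 are at 0.

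**Figure D2:**
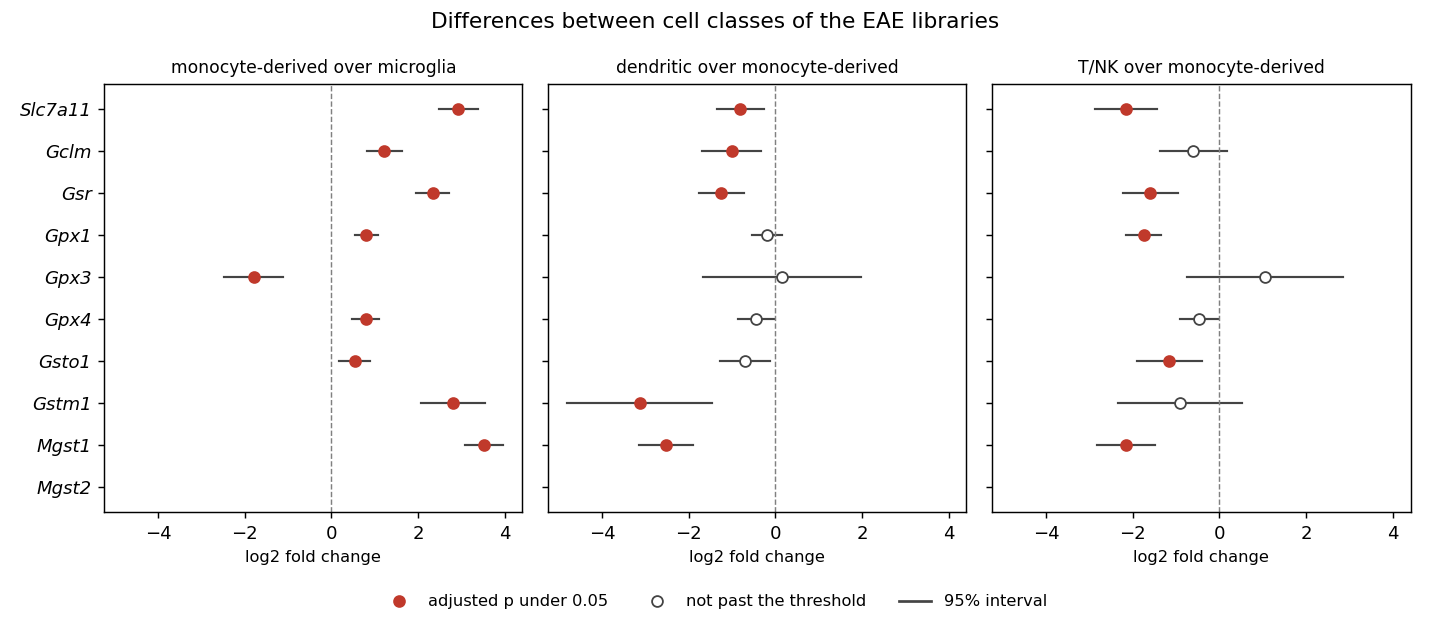
Log2 fold change between classes of the EAE libraries (x axis, 1 scale for all panels) for each gene (rows), with the 95% interval as a line; filled points passed an adjusted p of 0.05. Gpx3 is the single gene left of 0 among the 9 in the monocyte-derived over microglia panel, at -1.80, and Mgst2 has no point because its counts were too low.

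Shares of cells with at least 1 UMI ran in the same order for Mgst1. With every cell thinned to 1500 UMIs, Mgst1 was seen in 50.3% and 48.4% of the EAE ROS+ monocyte-derived cells and in 29.0% and 40.9% of the EAE ROS- ones (unthinned 93.0%, 82.1%, 67.2% and 76.9%). In microglia the thinned shares were 9.52% and 5.56% in EAE ROS+ libraries (unthinned 47.6% and 22.2%), 2.23% and 3.51% in EAE ROS- libraries (unthinned 13.2% and 11.4%), and 0.259% and 0 of 169 cells (up to 1.78%) in healthy libraries, where 192 and 7 cells were too shallow to enter. T/NK cells, a lineage outside the myeloid cells, gave 0 of 32 cells (up to 9.38%) and 4.35% of 23 cells (unthinned 18.8% and 8.70%), at median depths of 5470 and 5257 UMIs against 6629 and 4720.5 UMIs in EAE ROS- microglia. The exact 95% intervals in T/NK cells were 0% to 10.9% and 0.110% to 21.9%. These are too few cells to place the EAE ROS- microglial shares of Mgst1 above or below the T/NK shares. The monocyte-derived shares lay above both intervals. Slc7a11 was seen in 27.4% and 25.3% of EAE ROS+ and 24.3% and 31.9% of EAE ROS- monocyte-derived cells after thinning (unthinned 65.1%, 54.4%, 55.8% and 68.6%). Its thinned shares were 9.52% and 11.1% in EAE ROS+ and 2.84% and 2.63% in EAE ROS- microglia (unthinned 28.6%, 16.7%, 12.4% and 5.70%), beside 3.12% and 4.35% in T/NK cells (unthinned 6.25% and 8.70%). Gpx3 was seen in 2.64% (95% exact interval 1.41% to 4.47%) and 3.51% (1.53% to 6.80%) of EAE ROS- microglia after thinning, and in 16.2% and 7.89% before it. EAE ROS- monocyte-derived cells gave 0.940% and 0.671% (unthinned 3.62% and 2.68%), and T/NK cells gave 0 of 32 and 0 of 23 cells (up to 9.38% and 13.04%; unthinned 9.38% and 0%), too few cells to place the EAE ROS- microglial shares of Gpx3 or Slc7a11 above them. Intervals and limits cover counting error only.

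Outside the transferases, other glutathione genes were called between the same classes at about the share of all genes (43.1%). Of the other transferases tested, 9 of 12 were called. Among 14 genes of precursor supply and turnover, 7 were tested and 2 were higher in monocyte-derived cells: the dipeptidase Dpep2 (3.44 ± 0.22, adjusted p = 1.37e-12) and the aminopeptidase Anpep (3.10 ± 0.22, adjusted p = 6.29e-12), while the aminopeptidase Lap3 was lower (-1.88 ± 0.14, adjusted p = 1.87e-11). Among 12 tested of 22 other transferases and related lipid enzymes, 6 were higher and 3 lower, the lowest p values being those of the prostaglandin D synthase Hpgds (-3.44 ± 0.21, adjusted p = 4.46e-13) and the leukotriene C4 synthase Ltc4s (-3.50 ± 0.22, adjusted p = 7.12e-13), both lower in monocyte-derived cells. Of 5 other peroxidases and glutaredoxins tested out of 7, Prdx6 (2.88 ± 0.17, adjusted p = 4.46e-13) and Glrx (0.97 ± 0.17, adjusted p = 4.82e-05) were higher and none lower. Of 7 NADPH-supplying enzymes tested out of 9, 3 were higher (Taldo1, Idh1 and G6pdx, log2 fold changes of 0.64, 1.02 and 0.63). Of 7 regulators and their targets tested out of 9, 3 were higher: Txnrd1 (1.31 ± 0.19), Srxn1 (1.93 ± 0.33) and the transcription factor Nfe2l2 (0.65 ± 0.16). The medians of the 5 lists in the order given were -0.08, 0.76, 0.25, 0.30 and 0.29, beside -0.02 over all genes.

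Dendritic and T/NK cells of the EAE ROS- libraries had less of several of the genes than monocyte-derived cells. Of 9 genes tested, 5 were lower in dendritic cells and none higher, where 11.6% of 8623 genes were called (5.55% lower, 6% higher), and 5 were lower in T/NK cells and none higher, where 17.5% were called (9.15% lower, 8.35% higher). Mgst1 had 52.0 and 62.1 CPM in dendritic cells (-2.53 ± 0.30, adjusted p = 7.86e-07) and 37.9 and 159.9 CPM in T/NK cells (-2.16 ± 0.32, adjusted p = 1.8e-05), each set against the monocyte-derived values above. Slc7a11 had 123 and 191 CPM in dendritic cells (-0.81 ± 0.26, adjusted p = 0.0477) and 64.4 and 83.8 CPM in T/NK cells (-2.15 ± 0.35, adjusted p = 5.62e-05). Gsr had 48.7 and 107 CPM in dendritic cells (-1.25 ± 0.25, adjusted p = 0.00106) and 41.7 and 114 CPM in T/NK cells (-1.59 ± 0.31, adjusted p = 0.000476). These are the 3 genes that were lower in both classes. The median log2 fold change of the 9 genes was -0.81 in dendritic and -1.15 in T/NK cells, beside -0.05 and 0.02 over all genes. The T/NK calls over all genes were 720 higher and 789 lower, and 1082 higher and 583 lower with plain totals.

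Calls of the remaining genes were not shared by the 2 small classes, and the difference between those classes was not tested. Gpx1 had 559 and 755 CPM in dendritic cells (-0.19 ± 0.17, interval -0.54 to 0.16, adjusted p = 0.595), and 212 and 312 CPM in T/NK cells (-1.75 ± 0.20, adjusted p = 3.08e-07). Gclm had 32.5 and 22.2 CPM in dendritic cells (-1.01 ± 0.33, adjusted p = 0.0492) and 30.3 and 53.3 CPM in T/NK cells (-0.60 ± 0.38, adjusted p = 0.318). Gstm1 had 2 UMIs in all dendritic cells (-3.13 ± 0.81, 95% interval -4.80 to -1.45, adjusted p = 0.00968), and 0 and 5 UMIs in the T/NK libraries (-0.91 ± 0.69, adjusted p = 0.436). Gsto1 had 55.2 and 42.2 CPM in dendritic cells (-0.69 ± 0.28, adjusted p = 0.123) and 37.9 and 45.7 CPM in T/NK cells (-1.15 ± 0.36, adjusted p = 0.0268). Gpx4 had 305 and 337 CPM in dendritic and 284 and 472 CPM in T/NK cells, with log2 fold changes of -0.44 ± 0.20 and -0.46 ± 0.22 (adjusted p = 0.196 and adjusted p = 0.153). Gpx3 rested on 4 and 0 UMIs in dendritic and 5 and 0 UMIs in T/NK cells, and no call was made (adjusted p = 0.951 and 0.488). Mgst2 was not tested between classes and had 0 of 758492 UMIs in dendritic cells, which allows up to 3.96 CPM, and 2 UMIs in each T/NK library.

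Without EAE ROS- library 2 the dendritic values were -0.54 for Gclm (adjusted p = 0.798), -1.13 for Slc7a11 (adjusted p = 0.0528) and -2.49 for Gstm1 (adjusted p = 0.312), and without EAE ROS- library 1 that of Slc7a11 was -0.55 (adjusted p = 0.373). Dendritic Gclm also lost its call with DESeq2 (adjusted p = 0.173), RLE size factors (adjusted p = 0.0663), plain totals (adjusted p = 0.054), the stricter class rule (adjusted p = 0.108) and without EAE ROS+ library 1 or 2 (adjusted p = 0.0595 and 0.0593). Dendritic Slc7a11 lost it with DESeq2 (adjusted p = 0.379), RLE size factors (adjusted p = 0.0698), no library block (adjusted p = 0.0674) and without EAE ROS+ library 1 (adjusted p = 0.0595), and dendritic Gstm1 with DESeq2 (adjusted p = 0.0923). The T/NK call of Gsto1 was lost with DESeq2 (adjusted p = 0.0604), plain totals (adjusted p = 0.0703), without EAE ROS- library 1 (adjusted p = 0.237) and without library 2 (adjusted p = 0.0794). Monocyte-derived markers summed to 2055.7 and 3817 CPM in dendritic and 1327 and 1478 CPM in T/NK cells, with 7 to 9 of the 10 detected, beside 5336 and 8079 CPM in monocyte-derived cells of the same libraries, and their part in the levels of these small classes was not tested.

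Microglia of the EAE ROS- libraries had more Slc7a11, Mgst1, Gpx3, Gsto1 and Gsr than microglia of healthy mice. Gclm, Gpx1 and Gpx4 did not pass the test, and Gstm1 and Mgst2 were too low to be tested in the fit of all libraries. Of 8 genes tested, 5 were called higher and none lower, where 29% of 8486 genes were called (16.2% higher, 12.8% lower). Gstm1, which is not among the 8, had 3.34 and 2.45 CPM in EAE ROS- and 8.84 and 21.1 CPM in healthy microglia. The split over all genes was 1376 higher and 1085 lower, and 1012 higher and 1604 lower with plain totals. The median log2 fold change was 1.37 over the 8 genes and -0.03 over all genes.

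Slc7a11 had 45.9 and 22.1 CPM in EAE ROS- microglia, against 2.27 CPM and 0 UMIs in healthy microglia, a log2 fold change of 4.43 ± 0.52 (95% interval 3.36 to 5.51, adjusted p = 5.77e-07). Mgst1 had 27.0 and 26.1 CPM in EAE ROS- microglia, against 1.59 and 1.40 CPM in healthy microglia, a log2 fold change of 4.26 ± 0.50 (95% interval 3.23 to 5.29, adjusted p = 5.36e-07). Gsr had 35.7 and 36.8 CPM in EAE ROS- microglia, against 22.4 and 9.83 CPM in healthy microglia (1.16 ± 0.32, adjusted p = 0.00791). The groups did not overlap for these genes, and the share of all genes without such overlap was not counted. The Gsr call was lost without EAE ROS- library 1 (log2 fold change 1.11) and without healthy library 2 (0.82). Microglia of healthy library 2 stood apart from those of library 1 in markers of other cells, with 271 and 10.9 CPM of endothelial markers and 237 and 117 CPM of astrocyte markers in libraries 2 and 1. Without healthy library 2, Slc7a11, Mgst1, Gpx3 and Gsto1 were still called.

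The same microglia also held more RNA of the monocyte-derived markers. These 10 genes summed to 484 and 662 CPM in EAE ROS- microglia, with all 10 detected, against 35.8 and 36.5 CPM in healthy microglia, with 10 and 6 detected. Set against the monocyte-derived cells of the same library, EAE ROS- microglia held 9.06% and 8.19% of the summed marker level, 9.44% and 6.46% of the Mgst1 level, 17.6% and 6.86% of the Slc7a11 level, and 24.9% and 15.4% of the Gsr level. Taken singly, the 10 markers ran from 4.32% to 31.4% in EAE ROS- library 1 and from 3.74% to 39.5% in library 2. The part of monocyte-derived RNA in the Mgst1, Slc7a11 and Gsr differences was not tested.

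Gpx3 and Gsto1 were also higher in EAE ROS- microglia and were set on the same scale. Gpx3 had 23.6 and 17.2 CPM in EAE ROS- microglia (92 and 21 UMIs), against 0 of 5121941 UMIs in healthy microglia, which allows up to 0.586 CPM over the group; the pooled level of 22.1 CPM in EAE ROS- microglia was at least 37.7-fold higher (adjusted p = 2.96e-07). Its level in EAE ROS- microglia was 482% and 437% of that in monocyte-derived cells of the same library. Gsto1 had 69.6 and 55.5 CPM in EAE ROS- microglia, against 29.3 and 14.04 CPM in healthy microglia (1.58 ± 0.29, adjusted p = 0.000239), and reached 95.7% and 75.6% of the monocyte-derived level. The part of RNA from other cells in the Gpx3 and Gsto1 differences was not tested.

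Gclm had 21.8 and 28.6 CPM in EAE ROS- microglia, against 21.5 and 23.9 CPM in healthy microglia, with a log2 interval of -0.34 to 1.03 (adjusted p = 0.472). Gpx1 had 443 and 508 CPM in EAE ROS- microglia, against 442 and 336 CPM in healthy microglia (interval -0.02 to 0.95, adjusted p = 0.146). Gpx4 had 297 and 252 CPM in EAE ROS- microglia, against 286 and 282 CPM in healthy microglia (interval -0.39 to 0.68, adjusted p = 0.721). The healthy ranges of Gclm and Gpx4 overlapped those of EAE ROS- microglia. Gstm1 was lower in EAE ROS- microglia without overlap, at 3.34 and 2.45 CPM, against 8.84 and 21.1 CPM in healthy microglia, and was not tested in the fit of all libraries. The share of all genes that were lower without overlap was not counted. Mgst2 had 1 UMI in EAE ROS- and 1 UMI in healthy microglia. Microglia-marker sums were 2945 and 3989 CPM in EAE ROS- and 9723 and 10576 CPM in healthy microglia.

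**Figure D3:**
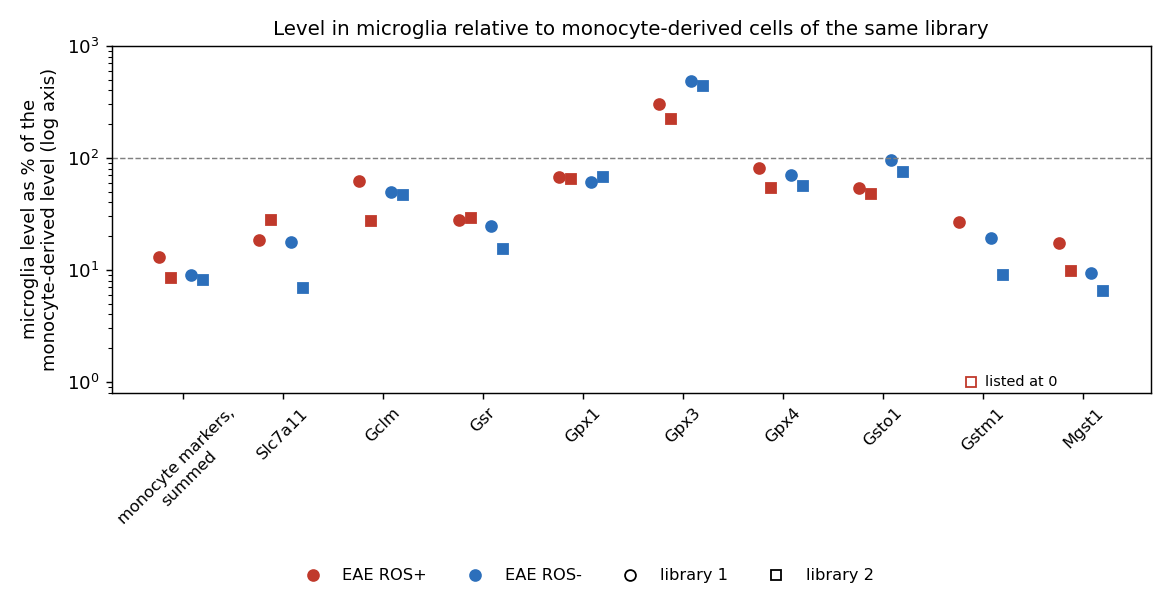
Level in microglia as a percentage of the level in monocyte-derived cells of the same EAE library (y axis, log scale) for the summed monocyte-derived markers and each gene (x axis), circles for library 1 and squares for library 2, red for EAE ROS+ and blue for EAE ROS- libraries. Mgst1 lies near the summed markers (6.46% to 17.4% against 8.19% to 12.99%), Gsto1 at 47.6% to 95.7% and Gpx3 above 100%. Single markers are not drawn and ran from 0% to 79.0%, both ends in EAE ROS+ library 2. The open square marks a Gstm1 value listed at 0, and Mgst2 is not drawn.

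Other glutathione genes of microglia were called in both directions, beside 29% of all genes (16.2% higher, 12.8% lower). Of 8 supply and turnover genes tested, 6 were higher and 1 lower in EAE ROS- microglia. The lowest adjusted p values were those of Lap3, Anpep, Ggct and Dpep2, in that order. Anpep and Dpep2 were higher in monocyte-derived cells than in microglia, and the part of monocyte-derived RNA in their calls was not tested. Lap3 had 229 and 330.0 CPM in EAE ROS- microglia, against 85.7 and 114 CPM in healthy microglia (1.68 ± 0.26, adjusted p = 2.22e-05), and the glutamylcyclotransferase Ggct was also higher (2.46 ± 0.46, adjusted p = 0.000256). Of 8 other transferases and lipid enzymes tested, 2 were lower and none higher. Ltc4s had 73.2 and 109 CPM in EAE ROS- microglia, against 713 and 698 CPM in healthy microglia (-2.80 ± 0.25, adjusted p = 1.01e-08). Hpgds had 185 and 179 CPM in EAE ROS- microglia, against 458 and 433 CPM in healthy microglia (-1.10 ± 0.23, adjusted p = 0.000884). Of 5 peroxidases and glutaredoxins tested, 4 were higher, led by Glrx (2.80 ± 0.31) and Prdx6 (1.56 ± 0.31). Of 7 NADPH-supplying enzymes tested, 4 were higher (Tkt 1.25, Pgd 1.19 and Taldo1 0.97 among them) and Idh2 was lower (-1.02). Of 6 regulators tested, Keap1 (1.02 ± 0.30) and Txnrd1 (1.15 ± 0.35) were higher and Atf4 (-0.68 ± 0.24) lower. The list medians were 1.73 for supply and turnover, 0.03 for transferases, 1.07 for peroxidases and glutaredoxins, 0.71 for NADPH supply and 0.10 for regulators.

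Summed over all cells, EAE ROS- libraries had more of 8 of the 10 genes than healthy libraries, where 34% of 13631 genes were called (19.9% higher, 14% lower). In these sums more cells of a type and more RNA per cell cannot be told apart, and monocyte-derived cells made up 46.2% and 68.2% of the EAE ROS- cells and none of the healthy cells. Slc7a11 had 177 and 264 CPM in EAE ROS- libraries, against 2.48 and 2.19 CPM in healthy libraries (7.003 ± 0.383, adjusted p = 9.71e-06). Mgst1 had 175 and 319 CPM in EAE ROS- libraries, against 1.58 and 6.56 CPM in healthy libraries (7.02 ± 0.57, adjusted p = 4.54e-05). The healthy Mgst1 values rest on 7 and 6 UMIs.

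Gsr had 94.96 and 191 CPM in EAE ROS- libraries, against 22.3 and 10.9 CPM in healthy libraries (3.46 ± 0.45, adjusted p = 0.000566). Gsto1 had 69.8 and 71.2 CPM in EAE ROS- libraries, against 29.3 and 15.3 CPM in healthy libraries (2.03 ± 0.28, adjusted p = 0.0007). Gpx1 had 598 and 698 CPM in EAE ROS- libraries, against 444 and 331 CPM in healthy libraries (1.23 ± 0.24, adjusted p = 0.00453). No EAE value of these genes lay within the healthy range, and the share of all genes without such overlap was not counted. Gpx3 had 12.6 and 6.05 CPM in EAE ROS- libraries, against 0 UMIs in both healthy libraries, at least 17.5-fold higher by the limit of 3 counts over the group (adjusted p = 0.000837). Gclm had 34.7 and 52.9 CPM in EAE ROS- libraries, against 21.7 and 33.9 CPM in healthy libraries (1.23 ± 0.32, adjusted p = 0.0174). Gpx4 had 369 and 415 CPM in EAE ROS- libraries, against 286 and 303 CPM in healthy libraries (0.90 ± 0.22, adjusted p = 0.0118).

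The Gclm and Gpx4 calls were lost without EAE ROS- library 2 (adjusted p = 0.0879 and 0.0641), without healthy library 1 (adjusted p = 0.193 and 0.0802) and with plain totals (adjusted p = 0.0862 and 0.126), which moved the median of all genes to -0.48 and the split over all genes to 1696 higher and 4021 lower, against 2715 higher and 1914 lower with TMM. Gstm1 had 11.6 and 23.9 CPM in EAE ROS- libraries, against 9.25 and 17.5 CPM in healthy libraries; the ranges overlapped (1.08 ± 0.45, adjusted p = 0.092). That value was called without EAE ROS- library 1 (1.57, adjusted p = 0.00766) and with no filter on low counts (1.15, adjusted p = 0.00294). Mgst2 had 10 and 16 UMIs in EAE ROS- libraries, against 0 and 1 UMI in healthy libraries (adjusted p = 0.163, and 0.047 with no filter on low counts).

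**Figure D4:**
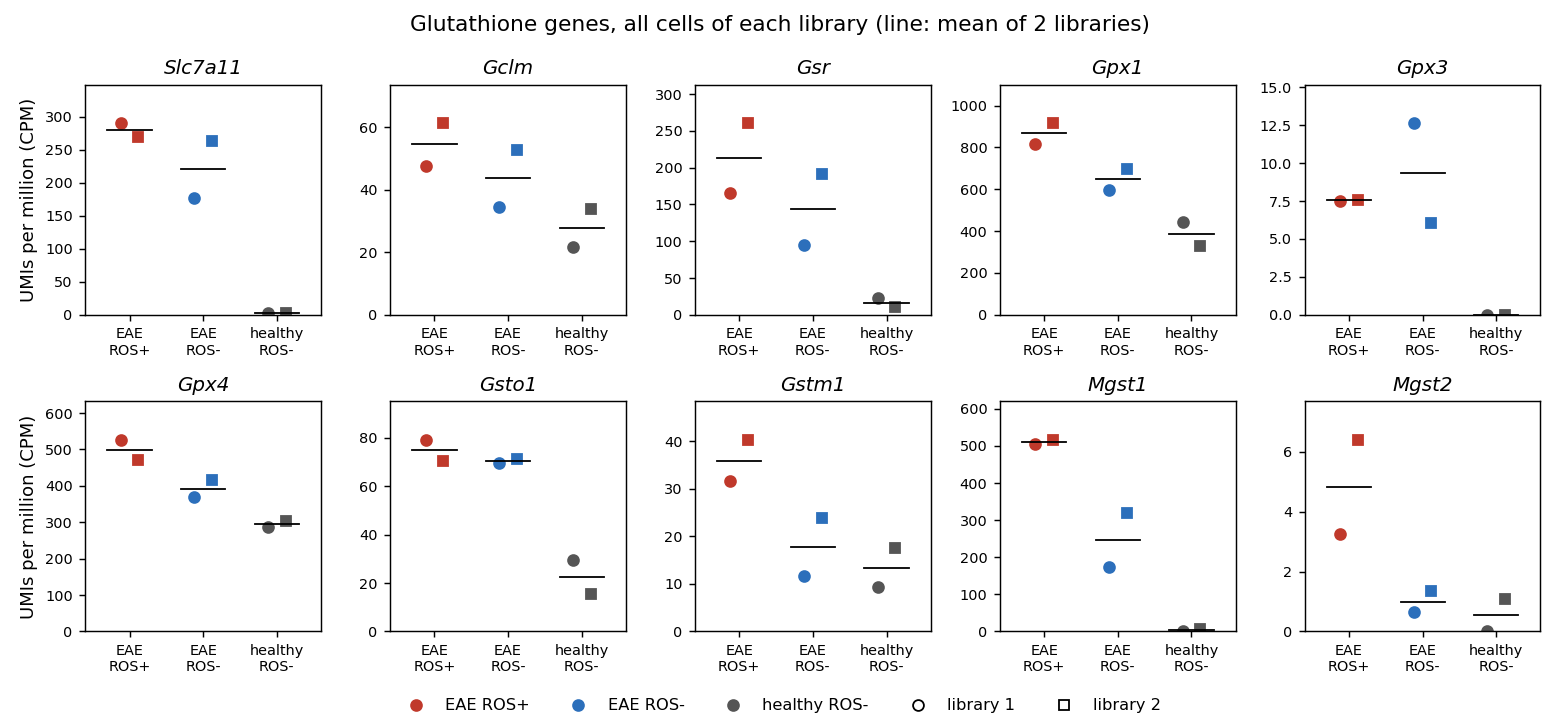
Level of each gene summed over all cells (y axis, UMIs per 1000000 UMIs, linear from 0) by group (x axis), 1 point per library and a line at the mean of the 2 libraries. Mgst1 is at 505 and 517 for EAE ROS+, at 175 and 319 for EAE ROS- and at 1.58 and 6.56 for healthy libraries, and Gpx3 is at 0 in both healthy libraries.

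Between the ROS gates of EAE mice, no gene of the 10 passed the test by edgeR or by DESeq2 in the fits of all libraries with a filter on low counts and no replicate block, in all cells, in monocyte-derived cells or in microglia. With the replicate number as a block, edgeR called Gstm1, Mgst1 and Mgst2 in all cells (adjusted p = 0.0125, 0.0322 and 0.0131). Calls over all genes were then 596 in place of 295, and no label pairs the samples. With no filter on low counts, edgeR called Mgst2, Mgst1 and Gstm1 in all cells (adjusted p = 2.41e-05, 0.000112 and 0.000435), where calls over all genes were 1006 in place of 295, and Mgst2 in monocyte-derived cells (adjusted p = 0.000647), where calls over all genes were 135 in place of 0. In all cells 2.16% of 13631 genes were called (0.125% higher, 2.04% lower), and 5 of the 10 genes had an unadjusted p under 0.05, all higher in EAE ROS+ libraries, beside 1708 of the 13631 genes at that unadjusted threshold. In 6 of the 10 genes both EAE ROS+ values lay above both EAE ROS- values, which held for 10.4% of all genes with at least 10 UMIs. Both counts used CPM over plain totals, with which the median log2 fold change over all genes tested was -0.18. The median log2 fold change of the tested glutathione genes was 0.55 in all cells, 0.27 in monocyte-derived cells and 0.30 in microglia, beside -0.01, 0.01 and -0.06 over all genes. Monocyte-derived cells made up 93.6% and 97.0% of the EAE ROS+ and 46.2% and 68.2% of the EAE ROS- libraries.

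The widest gaps in all cells were those of the transferases Mgst2, Mgst1 and Gstm1. Mgst2 had 3.25 and 6.41 CPM in EAE ROS+ libraries, against 0.635 and 1.34 CPM in EAE ROS- libraries (adjusted p = 0.0869). Mgst1 had 505 and 517 CPM in EAE ROS+ libraries, against 175 and 319 CPM in EAE ROS- libraries (adjusted p = 0.165). Gstm1 had 31.5 and 40.3 CPM in EAE ROS+ libraries, against 11.6 and 23.9 CPM in EAE ROS- libraries (1.18 ± 0.37, adjusted p = 0.182). None of the 3 overlapped between gates, and without EAE ROS- library 2 all 3 and Gsr were called (log2 fold changes of 3.10, 1.76, 1.84 and 1.37; adjusted p = 0.0414, 0.0098, 0.00839 and 0.039). In that fit the calls over all genes were 632, beside 295 with all libraries, and leaving out any other single library left 0 of the 10 genes called.

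Slc7a11 had 291 and 269 CPM in EAE ROS+ and 177 and 264 CPM in EAE ROS- libraries (0.51 ± 0.24, adjusted p = 0.454). Gsr had 165 and 260.3 CPM in EAE ROS+ and 94.96 and 191 CPM in EAE ROS- libraries (0.73 ± 0.38, adjusted p = 0.505). Gclm had 47.8 and 61.4 CPM in EAE ROS+ and 34.7 and 52.9 CPM in EAE ROS- libraries (0.48 ± 0.29, adjusted p = 0.584). The Gsr and Gclm ranges overlapped. Gpx1 had 818 and 915 CPM in EAE ROS+ and 598 and 698 CPM in EAE ROS- libraries (0.59 ± 0.24, adjusted p = 0.334), and Gpx4 had 527 and 469.9 CPM in EAE ROS+ and 369 and 415 CPM in EAE ROS- libraries (0.51 ± 0.21, adjusted p = 0.355). Gsto1 had 79.2 and 70.5 CPM in EAE ROS+ and 69.8 and 71.2 CPM in EAE ROS- libraries (0.26 ± 0.24, adjusted p = 0.737). Gpx3 had 7.52 and 7.57 CPM in EAE ROS+ and 12.6 and 6.05 CPM in EAE ROS- libraries (-0.14 ± 0.36, adjusted p = 0.921).

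Within monocyte-derived cells alone, 0% of 11917 genes were called by edgeR, 465 had an unadjusted p under 0.05 and DESeq2 called 28. Slc7a11 had a log2 fold change of 0.02 ± 0.20, with an interval of -0.47 to 0.51. Mgst1, with 519 and 523 CPM in EAE ROS+ against 286 and 404 CPM in EAE ROS- cells, had 0.63 ± 0.23 (interval 0.08 to 1.19), and Gstm1, with 32.1 and 40.1 CPM in EAE ROS+ against 17.2 and 27.3 CPM in EAE ROS- cells, had 0.72 ± 0.26. Mgst2 had 3.20 and 5.50 CPM in EAE ROS+ against 0.632 and 1.39 CPM in EAE ROS- cells (2.07 ± 0.50, interval 0.89 to 3.26), and Gpx3 7.14 and 7.65 CPM in EAE ROS+ against 4.90 and 3.92 CPM in EAE ROS- cells (0.79 ± 0.25). These 4 genes had an unadjusted p under 0.05 and an adjusted p of 0.997, and none overlapped between gates. The other log2 fold changes were 0.11 ± 0.22 for Gclm, 0.20 ± 0.31 for Gsr, 0.29 ± 0.20 for Gpx1, 0.25 ± 0.20 for Gpx4 and 0.10 ± 0.17 for Gsto1. In 6 of the 10 genes both EAE ROS+ values lay higher, against 12.7% of all genes.

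Microglia of the EAE ROS+ libraries were few (21 and 18 cells), and none of the 8 genes tested was called, where 0.0118% of 8486 genes were; 496 genes had an unadjusted p under 0.05 and DESeq2 called 5. Mgst1 had 90.3 and 50.8 CPM in EAE ROS+ microglia, against 27.0 and 26.1 CPM in EAE ROS- microglia (1.48 ± 0.42, unadjusted p = 0.00184, adjusted p = 0.425, edgeR). Monocyte-derived markers summed to 740 and 931 CPM in EAE ROS+ microglia, against 484 and 662 CPM in EAE ROS- microglia. The 9 neutrophil markers summed to 73.1 and 219.9 CPM in EAE ROS+ microglia (17 and 26 UMIs, 3 markers detected in each), against 9.498 and 10.6 CPM in EAE ROS- microglia (37 and 13 UMIs, 4 and 2 markers detected), and the neutrophil-class cells of EAE ROS+ library 2 held 761 CPM of Mgst1. The part of either marker set in the Mgst1 difference was not tested. Slc7a11 had 55.9 and 76.1 CPM in EAE ROS+ and 45.9 and 22.1 CPM in EAE ROS- microglia (0.79 ± 0.48), and Gsto1 43.0 and 33.8 CPM in EAE ROS+ and 69.6 and 55.5 CPM in EAE ROS- microglia (-0.69 ± 0.44), each with an adjusted p of 0.913. The difference of the gate effect between monocyte-derived cells and microglia was not called for any gene with a value, where 0.229% of 11776 genes were called by edgeR (0.0594% higher, 0.17% lower) and DESeq2 called 1. Those were 7 higher and 20 lower, and 2 higher and 29 lower with plain totals. Gsto1 alone of the 10 genes had an unadjusted p under the 0.05 threshold (0.90 ± 0.44, adjusted p = 0.768), as had 735 of the 11776 genes. Mgst2 had 0 UMIs in EAE ROS+ microglia and gives no value there.

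**Figure D5:**
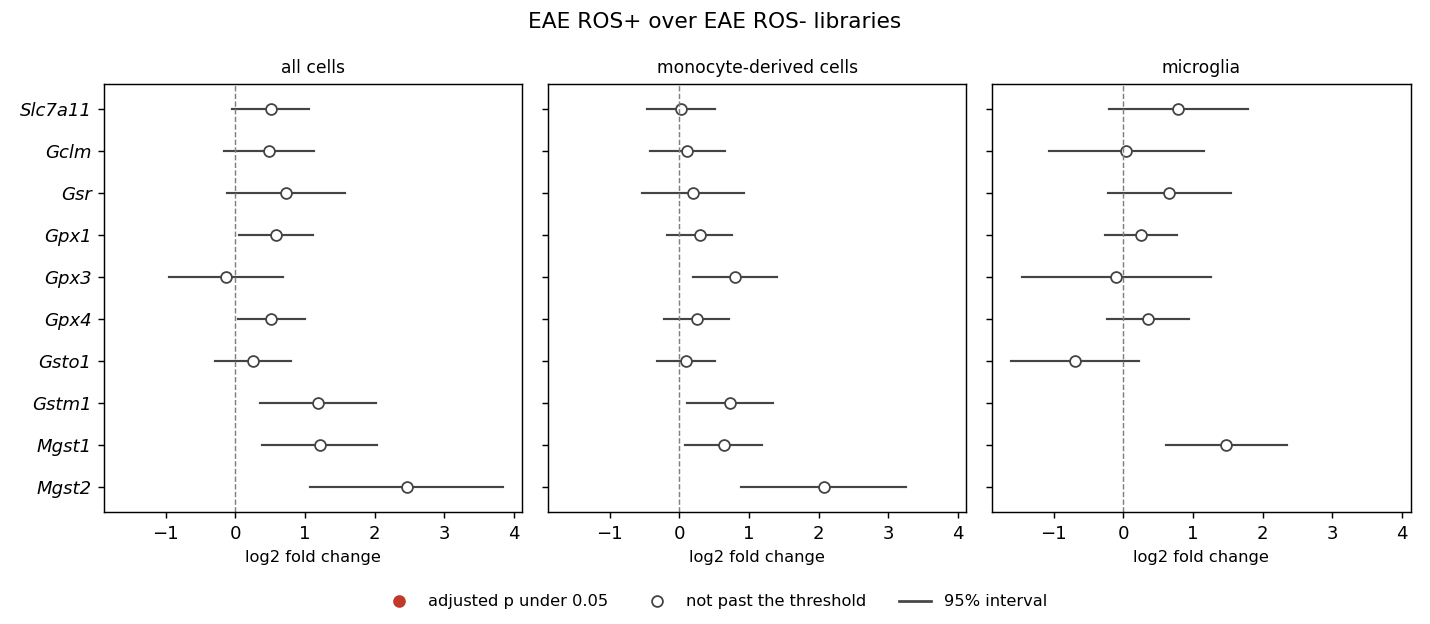
Log2 fold change of EAE ROS+ over EAE ROS- (x axis, 1 scale for all panels) for each gene (rows) in all cells, monocyte-derived cells and microglia, with 95% intervals. No gene passed an adjusted p of 0.05; the Slc7a11 interval in monocyte-derived cells spans 0 (-0.47 to 0.51), and those of Mgst1 lie right of 0 in all 3 panels.

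The other glutathione lists were also read in the remaining comparisons. In dendritic over monocyte-derived cells, where 11.6% of all genes were called, 2 of 7 supply and turnover genes were lower (Dpep2 and Anpep), as were 2 of 5 peroxidases and glutaredoxins (Prdx6 and Glrx), 2 of 7 NADPH-supplying enzymes (Pgd and Idh2) and 0 of 7 regulators, while 2 of 12 transferases were higher and 1 lower. In T/NK over monocyte-derived cells, where 17.5% of all genes were called, 4 of 7 NADPH-supplying enzymes were lower (Taldo1, Pgd, Tkt and Idh1), 2 of 7 supply genes lower and 1 higher, 1 of 12 transferases in each direction, and Prdx6 and Nfe2l2 lower. In all cells of EAE ROS- over healthy libraries, where 34% of all genes were called, 5 of 13 supply genes, 5 of 6 peroxidases and glutaredoxins, 5 of 16 transferases, 5 of 8 NADPH-supplying enzymes and 5 of 8 regulators were higher, with 1, 0, 3, 1 and 0 lower. Between ROS gates, Ltc4s in all cells (-2.13 ± 0.30, adjusted p = 0.00774) was the single call in any of these lists, lower in EAE ROS+ libraries.

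Across the 14 class-by-library sums of the 4 classes with at least 10 cells, log2(CPM + 1) of Mgst1 ran with that of Gsr (Pearson r = 0.94) and Slc7a11 (r = 0.94), Gsr with Slc7a11 (r = 0.91) and Gclm with Gpx4 (r = 0.84), while Gpx3 and Gstm1 had r = -0.44. Among 5290 genes of mean CPM 20 or more, Mgst1 was most like Ly6c2, Saa3 and Cxcl2 (r = 0.97 each), Slc7a11 most like Lgals3, Plac8 and Slc7a2 (r = 0.98 each) and Mgst2 most like Eea1, Furin and Ms4a4b (r = 0.87, 0.86 and 0.85). For Mgst2, each T/NK sum held 2 UMIs (7.58 and 15.2 CPM), each dendritic sum 0 and no microglial sum more than 1. Outside monocyte-derived cells the Mgst2 r values therefore rest on very few counts, and its likeness to any gene is uncertain. All of these r values describe sums that share libraries, and Ly6c2 and Plac8 are markers that defined the monocyte-derived class.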

How the data were processed

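For each of 6 libraries of CD11b+ mouse spinal cord cells the authors deposited raw counts of UMIs (genes by barcodes). Cell Ranger 2.0.1, Seurat 3, R 3.4.2 and the build mm10 are named per the submitters' processing notes; the handling of reads shared by similar genes is not stated there. The files hold 9079 barcodes and the series text states 8701 cells; the filter behind the difference is not known here. A barcode was kept with 200 or more genes and no more than 10% of UMIs from mitochondrial genes (9078 passed); doublets were not called. The 10 genes, the gene lists and the markers were chosen with earlier results of these data known, and the UMI minimums of the class rule were set after marker UMIs were seen, without looking at the 10 genes. A microglial or monocyte-derived cell needed at least 5 UMIs from 3 of its class's markers and an excess over the other class; dendritic cells needed 3 UMIs from 2 markers and T/NK cells 5 UMIs from 3. Counts were summed per class and library (at least 10 cells) and fitted with edgeR 4.0.16 in R 4.3.3 (quasi-likelihood test, TMM, minimum count 10, Benjamini-Hochberg over all genes tested, threshold 0.05); class fits had library as a block. The script was tested on simulated data. Shares were compared after thinning to 1500 UMIs, with exact 95% intervals; limits for a count of 0 use 3 counts. All 10 genes are named in each comparison, with up to 4 genes of each other list by lowest adjusted p. Alternatives were DESeq2 1.42.0, its size factors, no filter on low counts, plain totals, a stricter class rule, no library block, the replicate number as a block and each library left out. Python 3.11.15 with numpy 2.4.6, pandas 2.3.3, scipy 1.17.1 and matplotlib 3.10.9 was used.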

Additional observations from a re-analysis of the deposited data

How the results depend on the processing

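Over the alternatives, called differences of the 10 genes kept direction and call in 315 repeats and lost the call in 30; uncalled ones gained a call in 18 and changed sign in 37. Between ROS gates in all cells, 3 genes were called with no filter on low counts and 3 with the replicate block (Gstm1 1.27, Mgst1 1.30 and Mgst2 2.46, adjusted p = 0.0125, 0.0322 and 0.0131), and all-gene calls went to 1006 and 596, beside 295. In monocyte-derived cells 1 gene was called with no filter, and all-gene calls were 28 with DESeq2, 135 with no filter and 18 with the replicate block, beside 0. In microglia they were 5 with DESeq2, 27 with no filter, 3 with plain totals, 4 with RLE size factors and 27 with the replicate block, beside 1; for the interaction 1 with DESeq2 and 15 with no filter, beside 27. Dendritic calls among the 10 genes were 2 with DESeq2 and 3 with RLE size factors, beside 5. With the replicate block Gstm1 was also called in all cells for EAE ROS- over healthy (0.92, adjusted p = 0.0348). The samples share only a replicate number, with no label that pairs them: replicate differences correlated at 0.60 between EAE ROS+ and EAE ROS- and at -0.009 between EAE ROS- and healthy libraries over 4899 genes. Plain totals, chosen as an alternative after seeing the data, moved the median of all genes by over 0.1 in several comparisons, to -0.48 in all cells and -0.25 in microglia for EAE ROS- over healthy, -0.20 for monocyte-derived over microglia, 0.25 for T/NK and -0.18 for the gates in all cells. The cause of these changes was not tested.

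Where leaving out 1 library left a single one in a group, it was assumed to vary like the others. Leaving out 1 library gave these ranges for the 10 genes and for all genes: monocyte-derived over microglia 8 to 9 and 3037 to 3483, dendritic 2 to 4 and 526 to 979, T/NK 4 to 5 and 819 to 1478, EAE ROS- over healthy 6 to 9 and 2364 to 4295 in all cells and 4 to 6 and 1456 to 2757 in microglia, ROS gates 0 to 4 and 123 to 632 in all cells, 0 to 0 and 0 to 3 in monocyte-derived cells and 0 to 0 and 2 to 34 in microglia, and the interaction 0 to 0 and 1 to 28.

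Sign changes were all of uncalled values. Between gates, Gclm in microglia was -0.019 with no filter and Slc7a11 in monocyte-derived cells -0.022 with plain totals; Gpx4 in EAE ROS- over healthy microglia was -0.058 with plain totals; dendritic Gpx3 was -0.21 with no library block and -0.10 with no filter. For the interaction, Gpx4 was -0.048 with DESeq2, -0.12 with plain totals and -0.068 with RLE size factors, Gstm1 -0.061, -0.075 and -0.000237 in that order, Gpx1 -0.025 with plain totals and Gclm -0.089 with the stricter class. With 1 library left out the interaction ran from -0.23 to 1.11 for Gclm, -0.28 to 0.50 for Gpx4, -0.88 to 0.082 for Gsr, -0.86 to 0.52 for Gstm1 and -1.15 to 0.018 for Mgst1. The gate difference ran in microglia from -0.74 to 0.31 for Gclm, -0.53 to 0.18 for Gpx3 and -0.32 to 0.65 for Gpx4, in monocyte-derived cells from -0.12 to 0.39 for Gclm, -0.13 to 0.63 for Gsr, -0.024 to 0.21 for Gsto1 and -0.14 to 0.19 for Slc7a11, and in all cells from -0.53 to 0.46 for Gpx3. Gpx4 in EAE ROS- over healthy microglia ran from -0.064 to 0.32 and T/NK Gstm1 from -0.95 to 0.12.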

Other observations

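Cells with neutrophil markers were few, 19 in all and 13 in EAE ROS+ library 2, and had their own levels of these genes. In those 13 cells Mgst2 stood at 184.1 CPM and Gsr at 822 CPM, beside 5.50 and 262 CPM in monocyte-derived cells of the same library, while Slc7a11 was at 49.1 CPM, beside 272 CPM. They held 15 of the 99 Mgst2 UMIs of that library. Without this class the all-cell ROS gate difference of Mgst2 was 2.29 (edgeR, adjusted p = 0.104), an alternative chosen after seeing the data, and no call of the 10 genes changed.

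In healthy library 2, 22 cells (10.9%) carried endothelial markers, and 5 of that library's 6 Mgst1 UMIs were in those cells.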
